A study of Drosophila melanogaster with 3 samples.

Results

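The peaks described here lie at divergent promoters, where 2 neighbouring protein-coding genes start close together and are read away from each other. Of the 7571 peaks that the authors kept after their irreproducible discovery rate (IDR) procedure, a filter for peaks with similar ranks in different replicates, 500 (6.6%) belonged to this class. A peak was a member when its summit, the base of highest signal, lay within 500 bp of transcription start sites (TSSs) of at least 2 protein-coding genes on opposite strands, with the minus-strand TSS to the left of the plus-strand TSS. The members made up 19.8% of the 2528 peaks within 500 bp of any protein-coding TSS. The other promoter peaks were 1968 at TSSs of exactly 1 protein-coding gene, called single-gene promoters below, and 60 near several genes that were not in divergent order.

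Chromatin bound by the tagged protein was sequenced (ChIP-seq) from prepupae of *Drosophila melanogaster*, used whole, with males and females pooled and no age in hours stated. The flies stably carried a transgene for net with enhanced green fluorescent protein (eGFP) at its C-terminal end, and sonicated chromatin was precipitated with an antibody against GFP. The 3 libraries are biological replicates numbered 1, 3 and 4 and form 1 group, so no genotype, treatment or time could be compared. The labels do not state which regulatory sequence drives the transgene, and no precipitation from flies without the tag was analysed here. How much of the signal at these promoters any GFP precipitation would give was therefore not tested, and signal from different cell types of the animal cannot be told apart.

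The gene net encodes a basic helix-loop-helix (bHLH) protein known for keeping vein fate out of the intervein regions of the wing. Proteins of this class contact DNA at E-boxes, whose letters are CANNTG. Divergent promoters are common in the compact fly genome, often serve genes used in most cells, and often hold the DNA replication-related element (DRE, TATCGATA), the site of the factor Dref, while GAGAG is the core recognised by the GAGA factor Trl.

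The gaps between the TSSs of 5 pairs are printed to show what the sequence under these summits looks like. The first 3 are the gaps of the pairs with the strongest peaks that hold the summit, span at most 300 bp and overlap no annotated exon. The last 2 hold a DRE and were chosen after their values were seen. They were read 5′ to 3′ on the plus strand of the Release 6 genome (dm6) in RefSeq, so the gene named first reads to the left and the gene named second to the right. Capitals mark CANNTG in the first 3 and TATCGATA in the last 2.
Tcs5/CHMP2B, chr3L:5139396-5139618: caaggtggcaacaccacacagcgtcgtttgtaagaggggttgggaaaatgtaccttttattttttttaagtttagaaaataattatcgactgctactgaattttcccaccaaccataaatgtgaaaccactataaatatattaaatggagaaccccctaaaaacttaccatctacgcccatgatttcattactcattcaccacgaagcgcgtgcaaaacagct
CG3437/CG3552, chr3L:9457670-9457911: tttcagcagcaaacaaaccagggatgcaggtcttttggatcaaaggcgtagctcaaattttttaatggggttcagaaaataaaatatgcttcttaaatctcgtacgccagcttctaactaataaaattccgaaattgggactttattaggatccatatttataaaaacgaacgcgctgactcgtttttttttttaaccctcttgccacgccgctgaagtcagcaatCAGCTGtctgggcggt
Art3/mRpS10, chr3R:15229409-15229664: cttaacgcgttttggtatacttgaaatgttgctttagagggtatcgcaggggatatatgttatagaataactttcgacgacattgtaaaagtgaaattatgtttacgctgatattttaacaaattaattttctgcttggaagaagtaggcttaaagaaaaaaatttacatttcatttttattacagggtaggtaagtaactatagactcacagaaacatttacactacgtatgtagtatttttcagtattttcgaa
RpS25/CG4820, chr3R:11216288-11216534: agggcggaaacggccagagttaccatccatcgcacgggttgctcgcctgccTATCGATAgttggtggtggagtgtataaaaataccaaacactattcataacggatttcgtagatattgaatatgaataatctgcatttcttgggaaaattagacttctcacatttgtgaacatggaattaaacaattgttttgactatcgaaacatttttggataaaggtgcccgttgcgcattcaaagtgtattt
Cht11/CG4558, chrX:6849518-6849769: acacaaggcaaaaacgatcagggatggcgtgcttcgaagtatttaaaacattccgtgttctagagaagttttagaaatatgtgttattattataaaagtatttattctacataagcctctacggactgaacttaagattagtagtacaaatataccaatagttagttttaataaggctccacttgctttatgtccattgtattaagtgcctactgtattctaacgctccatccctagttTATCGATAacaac

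The summit fell on base 106 of the Tcs5/CHMP2B gap, base 144 of the CG3437/CG3552 gap and base 114 of the Art3/mRpS10 gap, counted from 1 at the left end. None of these 3 summits had an E-box within 50 bp, and the only E-box in the 3 gaps, CAGCTG, stood near the right end of the CG3437/CG3552 gap. The 50 bp to either side of these summits were poor in G and C, at 27.7%, 32.7% and 26.7%. In the RpS25/CG4820 gap the summit was on base 20, close to the TSS of the ribosomal protein gene RpS25, and in the Cht11/CG4558 gap on base 204, and in both the DRE was within 50 bp of it.

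The 12 divergent pairs with the highest signal held peaks that stood near the top of every library. The signal is the authors' value per peak, with no stated scale, and ranks in the relaxed peak list of each library, 30000 peaks long, serve here as the value in each replicate. The highest signal, 2703, was at chr2L:13835279-13835668 between mRpS23 (FBgn0260407), a subunit of the mitochondrial ribosome, and CenG1A (FBgn0028509), a GTPase-activating protein for Arf, and ranked 10, 8 and 9 in replicates 1, 3 and 4. The peak at Chro (FBgn0044324), which encodes a chromodomain protein of interbands and the mitotic spindle, and Ssl1 (FBgn0037202), a subunit of the transcription factor TFIIH, lay at chr3L:22878706-22879111 with a signal of 2453 and ranks of 11, 12 and 17. The peak at Tcs5, a kinase-like factor in tRNA modification, and CHMP2B, a subunit of the ESCRT-III membrane-cutting complex, ranked 29, 14 and 29. The 3 replicates put these pairs in nearly the same place, with standard deviations (SD) of the rank of 1, 3.21 and 8.66. The 12 were picked by signal pooled over these same libraries, from a list filtered for similar ranks. High and similar ranks were therefore partly fixed by the choice and are no independent check.

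Next in signal came Fbw5/CG9147 with 1982 and ranks of 33, 28 and 28, where Fbw5 encodes an F-box protein. Pex11ab/CG8320, with the peroxisome division factor Pex11ab, had 1937 and ranks of 37, 21 and 38. The pair of uncharacterised genes CG11309/CG7632 had 1862 and ranks of 26, 40 and 40. These peaks were all among the first 40 in every library, and all 3 summits lay outside the gap, which was only 134, 33 and 39 bp wide.

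CG3437/CG3552 had a signal of 1849 and ranks of 52, 30 and 37, and tank/CG12194 had 1803 and ranks of 70, 26 and 39. Art3/mRpS10, which pairs an arginine methyltransferase with another subunit of the mitochondrial ribosome, had 1780 and ranks of 53, 36 and 41. CG8372/CG8360 had 1745 and ranks of 62, 25 and 61. CG5611/Mtl, with the Rac-like GTPase Mtl, had 1684 and ranks of 51, 53 and 48, and Pdrg1/Pal1, with the prefoldin-like Pdrg1 and the peptide-amidating enzyme Pal1, had 1661 and ranks of 58, 50 and 47. No rank of any of the 12 was below place 70 in any library. In the 50 bp to either side of these 12 summits an E-box occurred in 3, CGATA in 4, TATAAA in 2, GAGAG in 1 and the DRE in 0, and the share of G and C ran from 24.8% to 39.6%.

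**Figure D1:**
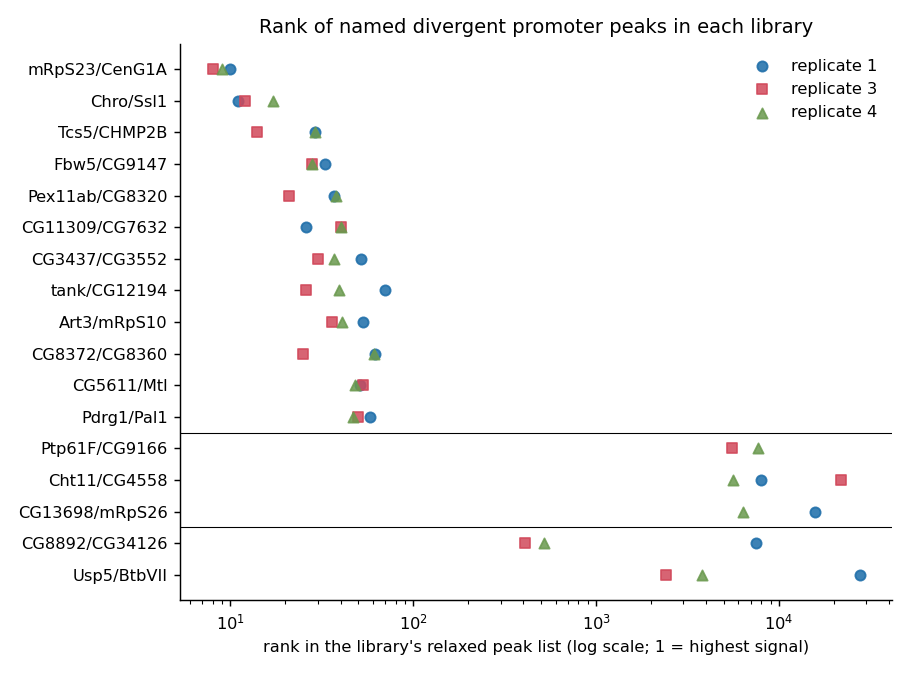
Rank of each named peak in the relaxed list of replicates 1, 3 and 4 on a log scale, with the 12 pairs of highest signal at the top, the 3 members of lowest signal in the middle and 2 with a large spread of rank at the bottom. The 12 strongest sit between rank 8 and rank 70 in every library, while the lower 5 reach rank 27765.

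At the other end of the list the libraries ranked members less alike. The 3 members of lowest signal, 135 each, were at Ptp61F/CG9166, with the tyrosine phosphatase Ptp61F, at Cht11/CG4558, with the chitinase-family gene Cht11, and at CG13698/mRpS26. Ptp61F/CG9166 ranked 5507 in replicate 3 and 7699 in replicate 4 and had no summit within 100 bp in replicate 1. Cht11/CG4558, whose stronger peak in the same pair had a signal of 432, ranked 8023, 21902 and 5610. CG13698/mRpS26 ranked 15815 in replicate 1 and 6326 in replicate 4 and was not matched in replicate 3.

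The largest spreads of rank belonged to CG8892/CG34126 and Usp5/BtbVII. CG8892/CG34126 ranked 7443, 406 and 521, and Usp5/BtbVII, where Usp5 encodes a deubiquitinating enzyme, ranked 27765, 2418 and 3805. In both, replicate 1 was the low library. Across all members the ranks of any 2 libraries were correlated with a Spearman's rho of 0.837, 0.838 and 0.823, over 455, 430 and 444 members found in both, as a description across peaks that share libraries.

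Of the 500 members, 316 (63.2%) had a summit within 100 bp among the 7571 strongest peaks of every library, 126 in 2 libraries, 54 in 1 and 4 in none. The share recovered was 79.8%, 90.8% and 80.2% in replicates 1, 3 and 4, against 82.2%, 83.9% and 75% of single-gene promoter peaks. The difference, divergent minus single-gene, was 3.25 ± 4.93 percentage points (SD, n = 3). Its mean was smaller than the spread between libraries, and it was negative in replicate 1 (exact two-sided sign-flip permutation test, p = 0.5, where the smallest p that 3 libraries allow is 0.25). With matches within 50 bp the mean difference was 4.11 percentage points and had 1 sign in 3 of 3 libraries (p = 0.25 in the same exact permutation test), and within 200 bp it was 2.97. The IDR list was itself derived from these libraries, so recovery is not an independent check of a peak.

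Signal ran from 135 to 2703 among members, with a median of 298 and quartiles of 188 and 466. Single-gene promoter peaks had a median of 234 and all IDR peaks 225. In each library the median rank of members stood ahead of that of single-gene promoter peaks, at 3310 against 3504 in replicate 1, 2415 against 3606 in replicate 3 and 3069 against 4288 in replicate 4, with unmatched peaks placed last. The difference, divergent minus single-gene, was -868 ± 584 places (SD, n = 3), where a lower rank number is a stronger peak, in the same direction in 3 of 3 libraries (exact two-sided sign-flip permutation test, p = 0.25, the smallest possible). It was -194 places in replicate 1, -1191 in replicate 3 and -1219 in replicate 4.

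The genome holds 2667 divergent pairs with TSSs at most 1000 bp apart, in which 5052 (36.2%) of the 13968 protein-coding genes take part. An IDR summit met the rule at 487 of these pairs, which is 18.3% with an exact 95% Clopper-Pearson interval from 16.8% to 19.8%. The share was 20.4%, 23.2% and 19.3% in the lists of the 7571 strongest peaks of replicates 1, 3 and 4, or 21 ± 2.05% (SD, n = 3). In all 3 of these lists at once, 355 pairs held such a summit, and 346 of them were among the 487. Peak lists carry no read counts, so library depth is unknown, and the intervals cover counting error only.

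Counted by gene, 946 genes had a member peak, 18.7% of the 5052 paired genes and 6.77% of all protein-coding genes. An IDR summit lay within 500 bp of an own TSS for 1265 (25.0%) of the paired genes and for 1273 (14.3%) of the 8916 genes in no divergent pair. On the 5 large chromosome arms, the share of pairs with an IDR summit was 22.8% on 3L, 19% on 3R, 18.3% on 2L, 16% on 2R and 14.6% on X. The intervals of the highest arm, 3L (19.2% to 26.6%), and of the lowest, X (11.3% to 18.5%), did not overlap. Those of the other arms overlapped at least 1 of these. Single-gene promoters were not counted by arm, so whether the difference is particular to divergent pairs was not tested.

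The gap between the TSSs nearest the summit had a median of 296 bp over the members, ranging from 2 to 784 bp. Pairs were measured by their shortest gap, which is not the same measure. Its median was 301 bp over all divergent pairs, 269 bp over pairs with an IDR summit and 313 bp over pairs without. Pairs more than 200 and at most 300 bp apart held an IDR summit in 26.6% of cases (22.9% to 30.5%). The share was 19.6% (15.9% to 23.7%) for gaps of up to 100 bp, 16.8% (13.1% to 21.1%) up to 200 bp, 24.8% (20.6% to 29.3%) for gaps above 300 and up to 400 bp, 21.3% (16.6% to 26.8%) up to 500 bp and 17.8% (12.8% to 23.7%) up to 600 bp. Among these classes, neighbours overlapped in their intervals except those just below and just above 200 bp. Among the 464 pairs more than 600 bp apart the share was 1.29%. The rule leaves a shorter stretch at such pairs, and its part in the lower share was not tested. Sequence was also sorted by the gap of the nearest TSSs, not by the shortest gap of a pair, which does not give the same pairs. Between TSSs more than 600 bp apart it held 108 IDR summits per Mb, from 11 summits. For gaps above 500 and up to 600 bp it held 463 per Mb. In replicates 1, 3 and 4 these densities were 128, 158 and 315 against 453, 433 and 525. Signal and gap length were nearly unrelated over the 500 members, with a Spearman's rho of -0.086.

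Summits were denser in divergent promoter sequence than in single-gene promoter sequence. Sequence that met the rule came to 1624 kb and held 308 IDR summits per Mb, against 147 per Mb in the 13371 kb of single-gene promoter sequence. Among the 7571 strongest peaks of each library the density was 344, 377 and 317 summits per Mb at divergent promoters and 162, 156 and 134 per Mb at single-gene promoters. The ratio was 2.11, 2.41 and 2.36, or 2.3 ± 0.159 (SD, n = 3), above 1 in 3 of 3 libraries (exact two-sided sign-flip permutation test on log2 ratios, p = 0.25, the smallest possible). It compares whole classes and is not matched for distance from the TSS, and ratios by distance are given below.

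The stronger the summits, the more of them stood at divergent promoters. The ratio of densities was 2.91 ± 0.463 (SD, n = 3) for ranks 1 to 1893 of each library, 2.38 ± 0.244 for ranks 1894 to 3786, 2.01 ± 0.184 for ranks 3787 to 5679 and 1.76 ± 0.319 for ranks 5680 to 7571. For the weaker summits down to rank 30000 it was 1.15, 1.08 and 1.03 in replicates 1, 3 and 4. Replicates 3 and 4 fell from each of these bins to the next, and replicate 1 fell from 2.4 to 1.82 over the first 3 bins and stood at 2.11 in the next. In the IDR list, ranked by the pooled libraries, 24 of the 100 strongest peaks were members and 36 were single-gene promoter peaks, and members were 11.3% of the peaks of ranks 1 to 1893 and 4.44% of those of ranks 5680 to 7571.

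**Figure D2:**
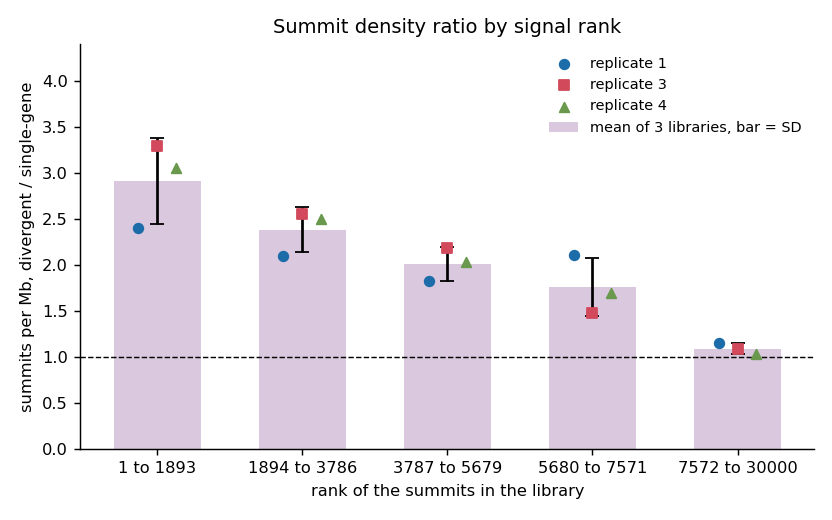
Summits per Mb at divergent promoters divided by summits per Mb at single-gene promoters, by rank of the summits in each library, with bars for the mean of 3 libraries, error bars for the SD and 1 symbol per library. The mean falls from 2.91 at ranks 1 to 1893 to 1.09 at ranks 7572 to 30000, close to the dashed line of equal density.

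Member summits lay mostly between the TSSs of the nearest pair. This held for 359 of 500 (71.8%, exact 95% Clopper-Pearson interval 67.6% to 75.7%), while 42% of the sequence that met the rule lies between the TSSs of its nearest pair. The share was 68.3%, 74.2% and 77.1% in the lists of replicates 1, 3 and 4, or 73.2 ± 4.49% (SD, n = 3). The remaining 72 lay on the side of the minus-strand gene and 69 on the side of the plus-strand gene, so neither side was favoured. The nearest TSS was a median of 81 bp away, and the minus-strand TSS was the nearer in 238 members and the plus-strand TSS in 261. Of the 359 summits between the TSSs, 205 (57.1%) fell in the middle 50% of the gap. A lean to the upstream side was not particular to divergent pairs. At single-gene promoters, 1426 of the 1968 IDR summits lay upstream of the nearest TSS, where 6040 of the 13371 kb of sequence lies.

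Sorted by distance from the nearest TSS, the excess of summits at divergent promoters was largest just upstream. Between 100 and 200 bp upstream, divergent promoters held 753 ± 20.8 summits per Mb (SD, n = 3 libraries) and single-gene promoters 320 ± 19.1, with ratios of 2.29, 2.21 and 2.59. In the 100 bp next to the TSS the upstream ratio was 1.93, 2.18 and 2.58 and the downstream ratio 1.53, 1.39 and 1.79. Each of these ratios was above 1 in 3 of 3 libraries (exact two-sided sign-flip permutation test, p = 0.25, the smallest possible). Farther than 200 bp upstream the libraries disagreed, with ratios of 0.949, 1.21 and 1.64 up to 300 bp. Between 300 and 500 bp upstream the ratios were 0.161, 0.343 and 1.42, from only 1, 2 and 10 divergent summits. The mean downstream ratio was 1.26 ± 0.106 (SD, n = 3) between 100 and 200 bp and 1.06 ± 0.292 up to 300 bp. Between 300 and 500 bp downstream all 3 ratios were below 1, at 0.525, 0.417 and 0.43. Divergent sequence lay closer to a TSS. Of its 691 kb upstream, 41.9 kb lay more than 300 bp away, against 2215 of 6040 kb at single-gene promoters. The mean ratio over all upstream sequence was 2.52 and over all downstream sequence 1.99, each higher than in any distance class within it.

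**Figure D3:**
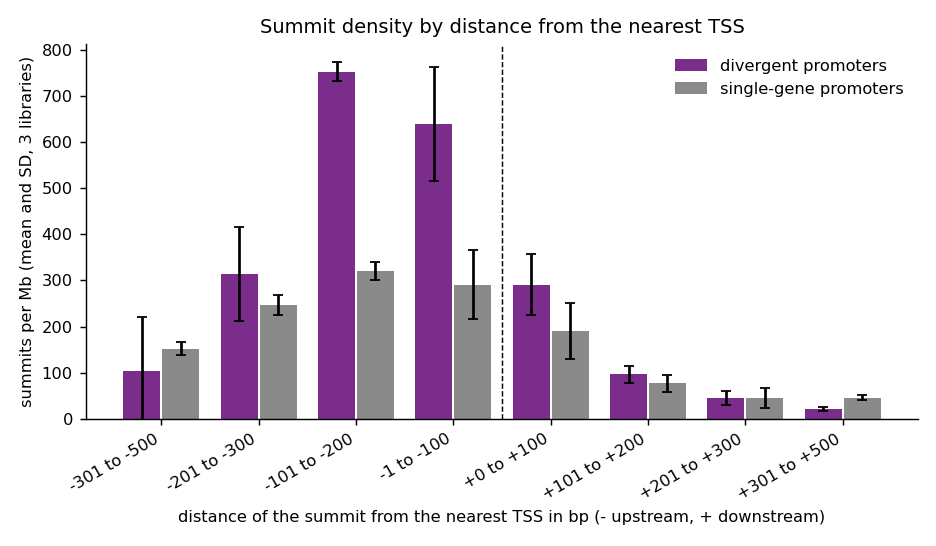
Summits per Mb of sequence by distance from the nearest TSS in bp, upstream to the left of the dashed line, for divergent and single-gene promoters, with bars for the mean and error bars for the SD of the 3 libraries. Divergent promoters reach 753 summits per Mb between 100 and 200 bp upstream, where single-gene promoters reach 320.

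Among the 24 members whose farther TSS lay 451 to 500 bp from the summit, signal ran from 146 to 1803 with a median of 238. Just beyond the limit, 18 peaks had the farther TSS 501 to 550 bp away, with signals from 135 to 670 and a median of 260. Of the members, 21 met the rule for more than 1 pair. In all, 37 nearest pairs held more than 1 member and the 500 members had 462 nearest pairs, so members that share a pair are not independent. Only 7 members also had a noncoding TSS within 500 bp.

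The motif content at member summits differed from that at single-gene promoter summits. All counts are of windows of 50 bp to either side of the summit that hold a match on either strand. The DRE, TATCGATA, was found at 21 of 500 member summits (4.2%), at 0.965% of single-gene promoter summits and at 0.66% of all IDR summits. In the library lists it was present at 4.48%, 5.38% and 3.88% of divergent summits and at 0.691%, 1.29% and 0.613% of single-gene summits in replicates 1, 3 and 4, a difference of 3.72 ± 0.416 percentage points (SD, n = 3). GAGAG was found at 8.6% of member summits and 20.5% of single-gene promoter summits. In the library lists it was at 8.78%, 8.65% and 6.99% of divergent summits against 22%, 20.8% and 17.4% of single-gene summits, a difference of -11.9 ± 1.37 percentage points (SD, n = 3).

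CGATA, which lies within the DRE and so counts each DRE again, was at 22.2% of member summits and 12.6% of single-gene promoter summits. TATAAA was at 20.6% against 14.1%, and the motif GGTCACACT, known as Motif 1 of fly core promoters, at 2.2% against 0.661%. Each of these differences, and those of the DRE and GAGAG, had 1 direction in 3 of 3 libraries (exact two-sided sign-flip permutation test, p = 0.25 each, the smallest possible, and 0.409 after Benjamini-Hochberg adjustment over 17 motifs and the G and C share). The share of G and C was lower at member summits, with 35.4% against 40.7%. TATAAA holds no G or C and was more frequent where that share was lower, GAGAG holds G and was less frequent there, and the part of the share in these differences was not tested.

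E-boxes as a whole were not more frequent at member summits. CANNTG was found at 34% of them (29.9% to 38.3%) and at 37.1% of single-gene promoter summits. It was in 40.5% of flanks, windows of the same length centred 250 bp to either side of the member summits. Flanks held 43% G and C against 35.4% at member summits, and the part of this in the E-box shares was not tested. The flanks held the DRE in 2%, GAGAG in 11.7%, CGATA in 17.2% and TATAAA in 12%. In the libraries CANNTG stood at 33.7%, 35.6% and 33% of divergent summits and at 38.4%, 36.5% and 34.3% of single-gene summits. The difference was -2.35 ± 2.09 percentage points (SD, n = 3), lower in 3 of 3 libraries (exact two-sided sign-flip permutation test, p = 0.25). Among the 10 cores of CANNTG, each part of the count above, the palindrome CAGCTG was at 6.61 ± 1.6% of divergent and 5.74 ± 0.636% of single-gene summits (SD, n = 3 libraries). In replicate 4 it was at 4.85% and 5.02%. In the IDR list CAGCTG was at 7.4% of member summits (5.26% to 10.1%), 5.39% of single-gene promoter summits (4.43% to 6.48%) and 4.42% of all IDR summits (3.97% to 4.91%). CATATG was at 2.37 ± 0.347% of divergent and 3.29 ± 0.485% of single-gene summits in the libraries. In the IDR list it was at 2.4% of member summits, 3% of single-gene promoter summits and 3.9% of all IDR summits. The absence of these letters from a window says nothing of how the tagged protein came to be there.

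**Figure D4:**
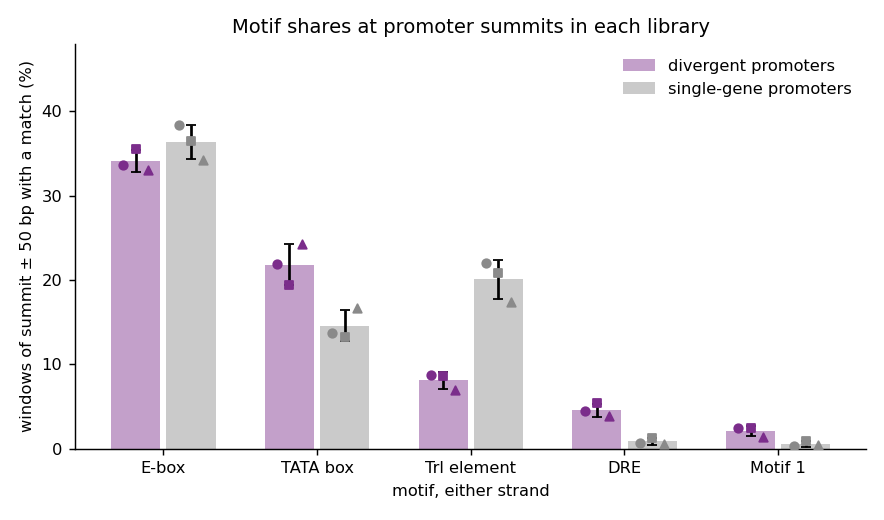
Share of summit windows, 50 bp to either side, with a match on either strand for 5 motifs in divergent and single-gene promoters, with bars for the mean, error bars for the SD and symbols for replicates 1 (circle), 3 (square) and 4 (triangle). The DRE and Motif 1 stand higher and the Trl element (GAGAG) lower at divergent summits in every library, while the E-box means are 34.1% and 36.4%.

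Divergent pairs that hold an IDR summit were set beside those that do not in windows of 100 bp to either side of the middle of the gap. The DRE was in 6.16% (4.19% to 8.68%) of the windows of the 487 pairs with a summit and in 9.08% (7.91% to 10.4%) of those of the 2180 pairs without. CANNTG was in 53.6% (49.1% to 58.1%) and 58.9% (56.8% to 61%), and GAGAG in 17.2% (14% to 20.9%) and 13.9% (12.5% to 15.5%). Over all 13968 protein-coding genes, windows of that length on a TSS held the DRE in 7.29%, CANNTG in 64.1% and GAGAG in 22.6%. In windows of that length on the summit itself, the DRE was at 9% of members, beside 8.55% of the gap middles of all divergent pairs. In the gap middles of pairs with and without a summit, Motif 1 was in 2.87% (1.58% to 4.78%) and 4.68% (3.83% to 5.65%). CGATA was in 37.6% (33.3% to 42%) and 42.1% (40% to 44.2%), and TATAAA in 42.5% (38.1% to 47%) and 39.2% (37.1% to 41.3%). Windows on a TSS of all protein-coding genes held them in 4.93%, 38.1% and 28.9%. For each of the motifs in this paragraph the intervals of pairs with and without a summit overlapped.

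Many genes for ribosomal proteins were among the paired genes with a member peak. Of 92 cytoplasmic ribosomal protein genes, 55 were in a divergent pair and 28 of those (50.9%) had a member peak, beside the 18.7% of all paired genes. In the library lists a summit met the rule at 30, 30 and 25 of the 55 in replicates 1, 3 and 4, where the share over all paired genes was 20.9%, 23.2% and 19.1%. Paired or not, 61 of the 92 genes (66.3%) had an IDR summit within 500 bp of an own TSS, beside 18.2% of all protein-coding genes. Of 73 mitochondrial ribosomal protein genes, 58 were in a divergent pair and 15 of those (25.9%) had a member peak, with 17, 18 and 16 in the library lists. These shares are counts over lists chosen with earlier results known, and list genes that share a promoter share a peak.

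The strongest peak at a cytoplasmic ribosomal protein gene was at RpS27/Nup37, which pairs a small-subunit protein with a nuclear pore protein, with a signal of 866 and ranks of 561, 122 and 741. Ripalpha/RpL7 had a signal of 729 and ranks of 933 and 187 in replicates 1 and 3, with no match in replicate 4. Dph4/RpL13A had 696 and ranks of 410, 364 and 1557, and CG12929/RpL31 had 553 and ranks of 675, 525 and 2605. Replicate 4 placed 3 of these lowest and did not match the other, and in each the summit lay within 50 bp of the TSS of the ribosomal protein gene. A DRE was at 7 of the 30 members of this list (23.3%), among them RpS25/CG4820 with a signal of 538 and ranks of 1008, 687 and 1388, against 4.2% of all members.

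At mitochondrial ribosomal protein genes the strongest members after mRpS23/CenG1A and Art3/mRpS10 were mRpL23/CG9004, with a signal of 1583 and ranks of 65, 38 and 107, and mRpL24/betaggt-I, with 859 and ranks of 279, 368 and 338. The betaggt-I gene encodes a subunit of a protein-prenylating enzyme. These ranks stayed within the first 400 in every library.

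Regulators of promoters and of chromosome insulation had member peaks at 4 of 8 paired genes, namely Chro, Cp190, Dref and pzg, with 4, 6 and 4 in the library lists. Over all paired genes the share was 18.7% in the IDR list and 20.9%, 23.2% and 19.1% in the library lists, and with 8 paired genes each gene weighs heavily in this count. Cp190/CG4338, at the gene of an insulator cofactor, had a signal of 854 and ranks of 359, 427 and 248. The peak shared by Dref, which encodes the protein that binds the DRE, and RpL13 had a signal of 407 and ranks of 1184, 1218 and 1891. At CG12974/pzg, whose second gene encodes a partner of Dref, the signal was 167 and the ranks were 5313, 5544 and 9074.

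Members were found at 6 of 24 paired aminoacyl-tRNA synthetase genes (25%), 4 of 19 paired Mediator subunit genes (21.1%), 3 of 14 paired vacuolar ATPase genes (21.4%), 7 of 43 paired oxidative phosphorylation genes (16.3%) and 3 of 21 paired translation initiation factor genes (14.3%). These shares are near the 18.7% of all paired genes. The strongest peaks in these lists were eIF4EHP/CG18428, at the gene of a cap-binding repressor of translation, with a signal of 1364 and ranks of 94, 125 and 49, and Vha100-2/Vti1b, with a proton pump subunit beside a SNARE protein, with 1124 and ranks of 131, 239 and 116. ND-ASHI/Fum1, a complex I subunit beside fumarase, had 909 and ranks of 290, 281 and 317. MED30/Rev1, a Mediator subunit beside a translesion DNA polymerase, had 731 and ranks of 472, 379 and 623. All 4 were within the first 1000 places of each library.

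The other members of highest signal in these lists ranked lower. Among the aminoacyl-tRNA synthetases, SerRS/CG17260 had a signal of 393 and ranks of 1902, 1851 and 1758, while GluProRS/AP-1sigma had 427 and a match only in replicate 3, at rank 1127. Among the Mediator subunits, elm/MED27 had 434 and ranks of 1742, 1034 and 1560, and CG12321/MED17 had 360 and ranks of 2023, 6118 and 1671. Vha44/Hmgs, which joins a pump subunit to the mevalonate pathway enzyme Hmgs, had 281 and ranks of 3496, 1900 and 5638.

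In some lists the paired genes had few member peaks or none, beside the 18.7% of all paired genes. Of 32 genes for small nuclear ribonucleoprotein and splicing factors, 28 were in a divergent pair and only snRNP-U1-C had a member peak, at snRNP-U1-C/gukh with a signal of 351 and ranks of 3653, 2216 and 1499. The library lists had a summit at 1, 1 and 2 of these 28 genes. Of 26 paired proteasome genes, Rpn3 and Rpn5 had a member peak, with 3, 2 and 3 in the library lists. Cuticle protein and chemosensory receptor genes are seldom paired, with 13 of 122 and 25 of 176 genes in a divergent pair. None of 13 paired cuticle protein genes and none of 25 paired chemosensory receptor genes had a member peak in the IDR list or a summit that met the rule in any library list.

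No gene of the wing vein list had a member peak, but few of these genes are in a divergent pair, and the share over all paired genes was 18.7%. The list of wing vein and EGF receptor pathway genes has 26 genes, of which 9 were in a divergent pair, namely Dsor1, Egfr, Ras85D, Sos, cnk, drk, gbb, px and spi. An IDR summit within 500 bp of an own TSS was found for 10 of the 26 (38.5%), beside 18.2% of all protein-coding genes, among them net itself, rho, aos and pnt. In the library lists a summit met the rule at 3, 0 and 0 of the 9. Of 14 ecdysone response genes, 9 had an IDR summit at an own TSS and 3, namely Hr3, Hr39 and usp, were in a divergent pair. Of these 3 paired genes, usp, the partner of the ecdysone receptor, had a member peak. It was at usp/CG4313 with a signal of 205 and ranks of 4939, 6962 and 3712. That is 33.3% of the paired genes of this list, beside 18.7% of all paired genes, and rests on 1 gene.

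**Figure D5:**
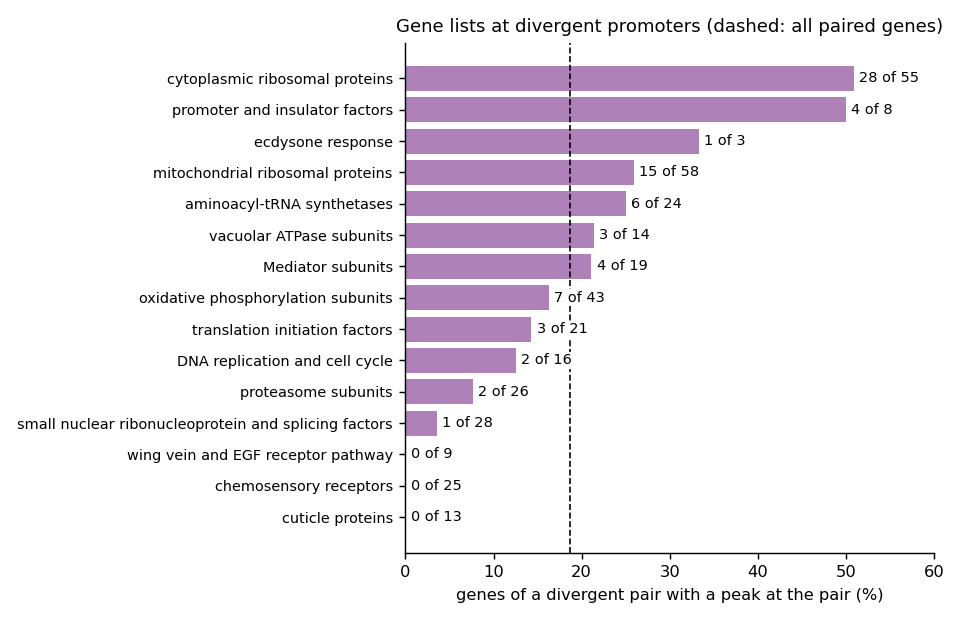
Share of the paired genes of each list that have a member peak, with the counts beside the bars and a dashed line at the 18.7% of all 5052 paired genes. Cytoplasmic ribosomal protein genes reach 50.9%, and the wing vein, chemosensory and cuticle lists are at 0.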

How the data were processed

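Anti-GFP ChIP-seq was measured in 3 net-eGFP libraries. Per the deposited file descriptions, the authors made a relaxed peak list for each library, 1 from the pooled alignments with a control alignment, and an IDR-thresholded list from these, on dm6. Neither the aligner nor the peak caller is given in the sources used here. The deposited signal per peak, on an unstated scale, was used only to describe and rank peaks within a list. All 7571 IDR peaks are among the 7571 strongest pooled peaks, so their order is that of the pooled libraries. Lists on dm3 were not used.

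TSSs came from Ensembl release 115 without transposable elements and pseudogenes, and sequence from RefSeq Release 6. Coordinates are 1-based. For each library the 7571 strongest peaks were used, and peaks were matched to the IDR list within 100 bp. Density is summits per Mb of sequence of a class. Differences between classes within a library were tested with exact sign-flip permutation tests (scipy 1.17.1, Python 3.11.15). The assignment of summits to classes and the density ratio were checked on simulated summits. The smallest p is 0.25, and nothing was fitted. Depth is unknown, and intervals treat peaks as independent.

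The members and lists were chosen with earlier results of these data known. Named were the 12 pairs with the strongest members, the 3 weakest members, the 3 with the largest SD of log2 rank among members ranked in every library, and up to 4 of the strongest members per list. A member that this rule names is not reported here. The alternatives were other distances, TSS sets, peak subsets, matching distances and windows, and leaving out each library.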

Additional observations from a re-analysis of the deposited data

How the results depend on the processing

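The density ratio stayed above 1 under the other distances, TSSs, peak subsets and left-out libraries. The rank difference stayed below 0 in the pooled list (-1124), in the stronger peaks and without each library, and the mean recovery difference stayed above 0 with both other matching distances and without each library. With a distance of 200 bp there were 202 members at 12.3% of pairs, making up 12.1% of promoter peaks, and the density ratio was 2.9. With 1000 bp there were 768 members at 20.6% of pairs and 23.5% of promoter peaks, 66.1% of summits lay between the TSSs, and the ratio was 1.78. With canonical transcripts only, members were 22.5% of promoter peaks and 418 in number. The stronger 3785 peaks held 320 members at 11.9% of pairs, 23.1% of their promoter peaks, with 75.9% between the TSSs, and the rank difference shrank to -209 places (exact permutation p = 0.5). Keeping peaks matched in both other libraries when each library was left out gave 331 to 374 members, 12.6% to 14.1% of pairs, 20.6% to 22.1% of promoter peaks and 73.8% to 76.7% between the TSSs, with the lowest member count without replicate 3. The mean ratio without 1 library was 2.24 to 2.39. The recovery difference was 1.42 to 6.05 percentage points and the rank difference -1205 to -693 places. The recovery difference was 1.42 without replicate 3, 2.27 without replicate 4 and 6.05 without replicate 1. With 1 summit per merged region of overlapping peaks, 466 members remained and the ratio was 2.23. In windows of 100 bp to either side the shares of the DRE, GAGAG and CANNTG at member summits were 9%, 17.8% and 59%. Of 56 alternative values, 35 stayed within the limits set for them and 21 moved. Only the density ratio, the recovery difference and the rank difference could be counted as changing direction, and none did. For these results the limit was an unchanged direction, whatever the change in size. No replicate block could be fitted, since the samples form a single group, and the sign-flip tests compare classes within each library. Depth is unknown and limits the precision of each share to an unknown degree.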

Other observations

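The 2180 divergent pairs without an IDR summit were not all free of signal. A weaker summit of the relaxed pooled list met the rule at 286 of them (13.1%, exact 95% Clopper-Pearson interval 11.7% to 14.6%), and 159 (7.29%) had a relaxed summit in each of the 3 libraries. For 1457 (66.8%) no list held such a summit. Weaker pooled peaks were about as dense in divergent as in single-gene promoter sequence, with 239 and 255 summits per Mb. Among the lists with few members, 8 of 26 paired proteasome genes and 3 of 28 paired splicing genes had a summit at the pair when the whole relaxed pooled list was used, against 1498 of all 5052 paired genes. For the paired cuticle protein genes this count was 1 of 13, and for the paired chemosensory receptor genes 0 of 25.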
